A study of Homo sapiens with 6 samples.

Results

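Diacylglycerol kinases and RasGRP exchange factors are the proteins that remove, or respond to, the membrane lipid diacylglycerol beside protein kinase C. Here they are the 10 genes DGKA, DGKD, DGKE, DGKG, DGKH, DGKQ, DGKZ, RASGRP1, RASGRP2 and RASGRP3, chosen by name and not by their values, out of 18417 genes with a probe set (the group of array probes that reads 1 transcript) annotated to a single gene symbol. All 10 were measured, each by its brightest such probe set. All samples were of 1 human line, RL, grown from a B-cell lymphoma and bearing the t(14;18) translocation. Of 6 samples profiled on Affymetrix Gene 1.0 ST arrays, 3 were untreated and 3 came from cells given LY317615 for 48 h. LY317615 is enzastaurin, an inhibitor designed to block the beta form of protein kinase C. The labels state its dose as 2.5 mM, a unit that could not be checked, and name no vehicle for the untreated cells, whose titles also carry 48 h. The replicates are called independent, without saying whether each was a separate culture, and every result describes this line alone.

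When a receptor such as the B-cell receptor activates phospholipase C, the enzyme splits a membrane phosphoinositide into a soluble calcium-releasing messenger and diacylglycerol, which stays in the membrane. Diacylglycerol recruits proteins with a C1 domain, among them the conventional and related protein kinases C and RasGRP proteins such as RasGRP1 and RasGRP3. The RasGRP family loads the small GTPases Ras and Rap1 with GTP. Diacylglycerol kinases end that signal by turning diacylglycerol into phosphatidic acid, and they fall into 5 structural types. In lymphocytes the alpha and zeta kinases are known as brakes on Ras activation downstream of the antigen receptor, and RasGRP1 and RasGRP3 as the exchange factors that link it to Ras.

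After LY317615, RNA of RASGRP1 and RASGRP2 fell and RNA of DGKA rose, while the other diacylglycerol kinases went in both directions. RASGRP2 was 1.96-fold lower, RASGRP1 1.83-fold lower and DGKA 1.65-fold higher (3 arrays a group). DGKH, DGKD and DGKE fell 1.75-fold, 1.54-fold and 1.51-fold, and DGKQ rose 1.26-fold. DGKG and DGKZ were not called, and RASGRP3 lay at the threshold. At a limma adjusted p of 0.05 (Benjamini-Hochberg over all genes), 7 of the 10 were called, 2 higher and 5 lower. Over all genes tested, 35.7% passed, 14.2% higher and 21.4% lower. The median log2 fold change of the 10 was -0.41, against 0.02 over all genes. The families differed, with a median of 0.08 for the 7 kinase genes and -0.87 for the 3 RasGRP genes. In bulk RNA, fewer cells that hold a transcript and less of it per cell cannot be told apart.

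The 3 RasGRP genes and DGKH are shown by the given bases that lie before the gene's outermost annotated start and outside other annotated genes, since RASGRP1, RASGRP2 and DGKH had the largest falls among these genes and RASGRP3 is the RasGRP gene that was not called. The stretches are from RefSeq (GRCh38.p14), read 5′ to 3′ on the gene's own strand. They lie at chr15:38564815-38565064 (minus strand) for RASGRP1, chr11:64745457-64745598 (minus strand) for RASGRP2, chr2:33436098-33436347 (plus strand) for RASGRP3 and chr13:42039820-42040069 (plus strand) for DGKH. Capitals mark matches, in either orientation, to the motifs named in the next paragraph; genes and motifs to show were chosen after the expression results were seen.
RASGRP1: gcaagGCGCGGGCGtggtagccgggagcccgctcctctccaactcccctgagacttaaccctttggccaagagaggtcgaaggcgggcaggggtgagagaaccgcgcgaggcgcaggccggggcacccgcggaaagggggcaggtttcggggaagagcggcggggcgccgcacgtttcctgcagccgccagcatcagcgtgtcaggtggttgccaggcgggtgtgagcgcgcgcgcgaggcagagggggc
RASGRP2: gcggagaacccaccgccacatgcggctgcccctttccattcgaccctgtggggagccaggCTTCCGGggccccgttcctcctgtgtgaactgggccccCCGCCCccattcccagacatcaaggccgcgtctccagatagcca
RASGRP3: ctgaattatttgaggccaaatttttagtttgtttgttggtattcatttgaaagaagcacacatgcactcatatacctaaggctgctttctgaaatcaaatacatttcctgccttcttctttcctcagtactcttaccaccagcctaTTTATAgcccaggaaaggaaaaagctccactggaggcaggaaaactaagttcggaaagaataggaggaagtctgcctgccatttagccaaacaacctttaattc
DGKH: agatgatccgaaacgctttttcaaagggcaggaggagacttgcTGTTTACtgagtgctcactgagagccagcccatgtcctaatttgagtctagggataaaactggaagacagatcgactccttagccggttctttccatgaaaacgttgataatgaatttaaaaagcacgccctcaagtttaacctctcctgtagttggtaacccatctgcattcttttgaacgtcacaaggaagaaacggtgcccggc

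Windows around annotated starts (250 bases before to 50 after) were given for 9 of the 10 genes, 21 windows in all. DGKQ had none. A set of 7 recurrent motifs was searched on both strands, and the share of all 35116 windows of this length that hold each is given beside the number of the 21 windows that do. The letters GCGNGGGCG, bound by EGR factors, stood in 5 of the 21 windows, 1 each of DGKA, DGKD, DGKG, DGKZ and RASGRP1, and in 9.43% of all windows. GTAAACA, bound by FOXO factors, stood in 1 window, of DGKH, and in 3.42% of all windows. CCGGAAG, bound by ETS factors, stood in 3 windows, of DGKA, DGKD and RASGRP2 (10.3% of all windows), and TGTGGT, bound by RUNX factors, in 3, of DGKD, DGKZ and RASGRP3 (13.1%). GGGCGG, a GC box that can overlap the EGR letters, stood in 11 windows (45.0%), TATAAA in 2, both of RASGRP3 (11.5%), and the E-box CACGTG in 0 (7.26%). The RASGRP1 window was rich in CpG pairs, with 36, against a median of 14 over all windows. RASGRP2 had 17 and the outermost RASGRP3 window 1. No motif was common to the genes that fell. A match describes letters only, and no binding was measured.

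**Figure D1:**
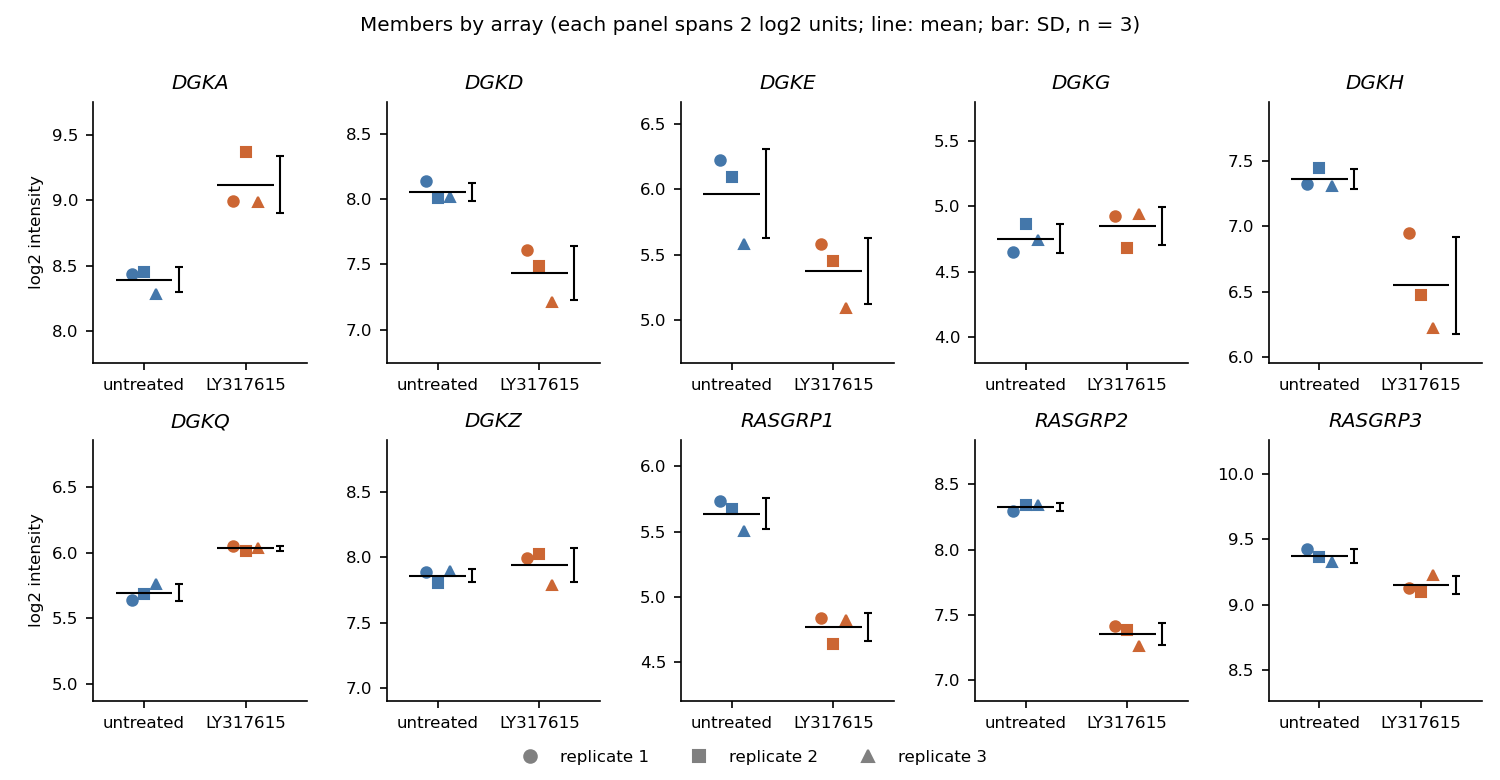
Log2 intensity (vertical axis) of the 10 genes on each array, untreated in blue and LY317615 in orange, with marker shapes for replicate numbers; lines are means and bars SDs of 3 arrays, and every panel spans the same height. The groups stand apart for RASGRP1, RASGRP2, RASGRP3, DGKA, DGKD, DGKH and DGKQ and overlap for DGKE, DGKG and DGKZ.

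Among the exchange factors, RASGRP2, also called CalDAG-GEFI and known for activating Rap1 in platelets and leukocytes, had the largest change. Its log2 intensity (probe set 7949104) was 8.29, 8.34 and 8.34 on the untreated arrays and 7.42, 7.39 and 7.26 on the treated arrays. All treated values lay below all untreated values by a gap several times the spread within either group. The group means were 8.33 ± 0.03 and 7.36 ± 0.08 (SD, n = 3), a log2 fold change of -0.97 ± 0.08 (SE, limma adjusted p = 5.99e-05).

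RASGRP1, the Ras exchange factor best known from T cells and also active in B cells, read 5.74, 5.67 and 5.50 untreated and 4.84, 4.64 and 4.82 treated (probe set 7987405). The treated arrays were again all lower. The change was -0.87 ± 0.09 (SE, limma adjusted p = 0.000220). Untreated RASGRP1 was dim, at the 39.6th percentile of genes by untreated log2 intensity, whereas RASGRP2 was at the 74.2nd and RASGRP3 at the 87.2nd; percentiles rank probe sets and do not compare transcript amounts between genes.

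RASGRP3, which acts on both Ras and Rap1 and is phosphorylated by protein kinase C after B-cell receptor engagement, changed little. It read 9.43, 9.36 and 9.32 untreated and 9.13, 9.10 and 9.23 treated. The groups did not overlap, as was the case for 49.8% of all genes, but the gap was narrow. The change was -0.22 ± 0.08 (SE), and its limma adjusted p of 0.0501 missed the threshold. RASGRP3 passed with the array medians set equal (adjusted p = 0.0216) and without LY317615 replicate 3 (0.0323), and was -0.004 ± 0.082 after cyclic loess, a scaling that removes trends with intensity (0.977). The fourth family gene, RASGRP4, known from mast cells and myeloid cells, was not called, at 0.08 ± 0.08 (SE, limma adjusted p = 0.512).

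Of the calcium-binding type I diacylglycerol kinases, DGKA, which encodes the alpha kinase of lymphocytes, was called higher. It read 8.44, 8.45 and 8.28 untreated and 9.00, 9.37 and 8.99 treated (probe set 7956046). Every treated array was above every untreated array, with treated replicate 2 the highest. The means were 8.39 ± 0.10 and 9.12 ± 0.22 (SD, n = 3), a change of 0.73 ± 0.11 (SE, limma adjusted p = 0.00152). DGKG, the gamma kinase, read 4.65 to 4.86 untreated and 4.68 to 4.94 treated and was not called (0.10 ± 0.10, SE, limma adjusted p = 0.472; -0.03 after cyclic loess). DGKB, the beta kinase known from brain, was dimmer still, at the 9.25th percentile, with a change of -0.04 ± 0.12 (SE).

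Of the type II kinases, DGKH and DGKD fell. DGKH, the eta kinase, read 7.33, 7.45 and 7.31 untreated and 6.95, 6.48 and 6.22 treated. The treated arrays were lower but scattered, with an SD of 0.37 against 0.08 untreated. The change was -0.81 ± 0.16 (SE, limma adjusted p = 0.00486). DGKD, the delta kinase, which forms complexes with the eta kinase, read 8.14, 8.01 and 8.02 untreated and 7.61, 7.49 and 7.21 treated. Its change was -0.62 ± 0.11 (SE, limma adjusted p = 0.00259). The third gene of that type, DGKK, was dim and not called (0.15 ± 0.11, SE, limma adjusted p = 0.333).

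DGKE is the sole type III kinase and prefers diacylglycerol that carries arachidonate, the form released from phosphoinositides. It read 6.22, 6.10 and 5.58 untreated and 5.58, 5.45 and 5.09 treated. Untreated replicate 3 lay level with treated replicate 1, so the groups overlapped. The change was -0.59 ± 0.18 (SE, limma adjusted p = 0.0293). The DGKE call was lost without untreated replicate 1 (adjusted p = 0.0963), untreated replicate 2 (0.0846) or LY317615 replicate 3 (0.101), and with array weights (0.0667).

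DGKZ, the type IV zeta kinase found in the nucleus and at the antigen receptor, was not called. Its brighter probe set (7968890) read 7.80 to 7.89 untreated and 7.79 to 8.03 treated, a change of 0.08 ± 0.09 (SE, limma adjusted p = 0.501). A further probe set (7939657) gave 0.10 ± 0.11. RefSeq lists a pseudogene of the same name, DGKZP1, and the annotation does not say which copy each probe set reads, so both values are uncertain. The number 7968890 stands next to that of the DGKH probe set (7968800), a gene on chromosome 13, whereas DGKZ lies on chromosome 11. The brighter probe set may therefore read a place other than DGKZ, which was not tested. After cyclic loess the brighter probe set changed by 0.21 (adjusted p = 0.0503). The other type IV gene, DGKI, was dim and changed by 0.08 ± 0.09 (SE). DGKQ, the type V theta kinase, read 5.64, 5.68 and 5.76 untreated and 6.05, 6.02 and 6.03 treated. Its groups were apart, with a change of 0.34 ± 0.07 (SE, limma adjusted p = 0.00683), which was 0.21 after cyclic loess (adjusted p = 0.0480).

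**Figure D2:**
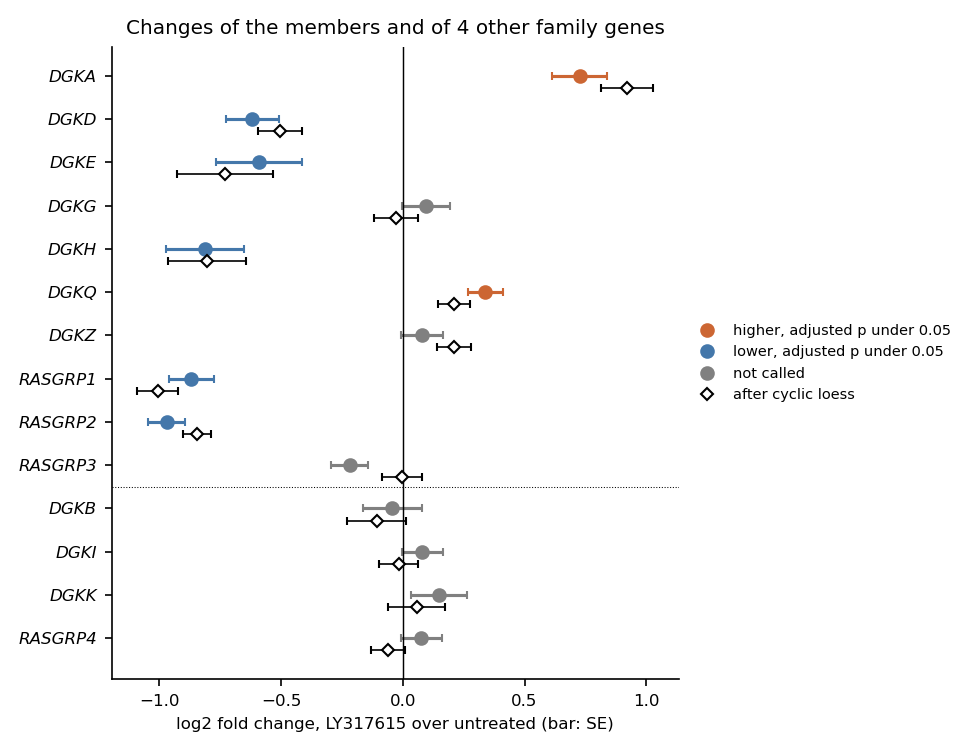
Log2 fold change of LY317615 over untreated (horizontal axis, bars SE) for the 10 genes and, below the dotted line, 4 other genes of both families; filled circles are values as deposited, coloured by call, and open diamonds values after cyclic loess. RASGRP1, RASGRP2, DGKH, DGKD and DGKE lie below 0 and DGKA and DGKQ above 0 under both scalings, while RASGRP3 moves from -0.22 to -0.004.

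Of the 4 other family genes, 0 were called in limma, against 35.7% of all genes. Their smallest unadjusted p was that of DGKK, at 0.223. All were dim, from the 9.25th to the 30.9th percentile of untreated intensity, and no detection calls were used, so whether they stood above background is not known.

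Changes on these arrays varied with brightness, and the 10 genes spread over 4 of 5 equal bins of genes by mean intensity. DGKA and RASGRP3 were in the brightest bin, where 9.47% of genes rose, 47.6% fell and the median change was -0.21. The rise of DGKA ran against that median, and the change of RASGRP3 was close to it. RASGRP2, DGKD and DGKZ were in the fourth bin, where 37.0% of genes fell. The place of DGKZ rests on its brighter probe set, which may read a place other than DGKZ. RASGRP1, DGKE and DGKG were in the second, where 4.70% fell and the median was 0.15. DGKH and DGKQ were in the middle bin, where 15.4% fell and 24.4% rose. The bins rest on the mean over all 6 arrays, treated arrays included, so the change of a gene helps set its bin. By untreated intensity alone, DGKH (62.3rd percentile) and DGKE (44.9th) would lie in brighter bins and DGKA (75.1st) in a dimmer bin. Shares for bins drawn on untreated intensity were not counted, so how far the comparison depends on this is not known.

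**Figure D3:**
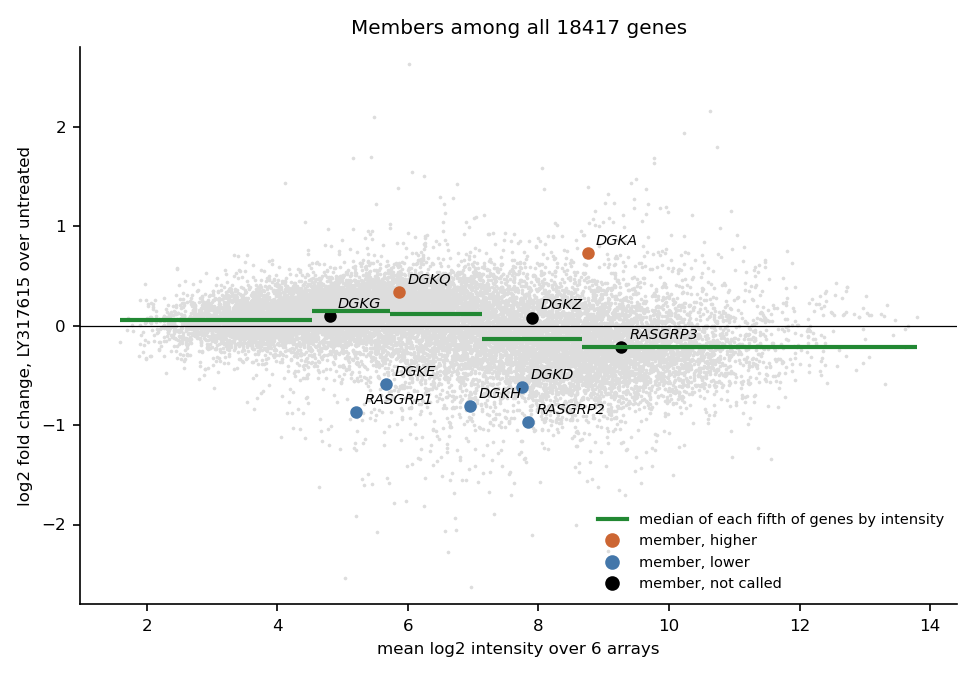
Log2 fold change (vertical axis) against mean log2 intensity over 6 arrays (horizontal axis) for all genes in grey, with the 10 genes labelled and green bars at the median of each of 5 bins of genes by intensity. DGKA lies above the median of its bin of -0.21, RASGRP3 close to it, and RASGRP1 at -0.87 below a bin median of 0.15.

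LY317615 replicate 3 stood apart from the other arrays, with an array weight of 0.376 against 1.04 to 1.51. Of the 5 genes called lower, 4 had their lowest treated value on it. The share over all genes was not counted, so whether that is unusual is not known. Without it the changes were -0.65 for DGKH, -0.51 for DGKD, -0.92 for RASGRP2, -0.90 for RASGRP1, 0.79 for DGKA and 0.34 for DGKQ, all called in limma. DGKE, at -0.45 without it, was not called (limma adjusted p = 0.101). Of 8 listed B-cell markers 6 were measured, all between the 87.0th and 98.9th percentile of genes. Their summed linear intensity was 10222 to 10706 untreated and 8062 to 8870 treated. Of the 6, 4 fell and CD37 rose. All 6 lay in the brightest bin, where 47.6% of all genes fell and the median change was -0.21. T-cell markers were dim: 8 of 8 were measured, none above the 39.6th percentile, and 2 rose (CD3E and CD8A). Their summed intensity was 211 to 225 untreated and 243 to 282 treated. Of 7 myeloid markers, none above the 49.5th percentile, 4 rose, with sums of 206 to 222 and 252 to 282. The T-cell and myeloid markers lay in the middle and dimmer bins, where more of all genes rose than fell. Sums of 5 natural killer markers were 150 to 157 and 148 to 175, with 0 called. Sums of 7 stromal, endothelial and epithelial markers were 316 to 354 and 464 to 495, with 2 called higher, PECAM1 and COL1A2. PECAM1 had the largest change of the 7, from a mean log2 intensity of 6.60 to 7.72. COL1A1, COL3A1, PDGFRB, VIM and EPCAM were not called. The part of these markers in the results above was not tested.

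The pattern of RASGRP2 over the 6 arrays was most like that of MRM3, UBXN7 and EIF2AK3 (Pearson r of 0.9998, 0.9998 and 0.9997). For DGKA the nearest were IFT46, KRT8P41 and LETMD1 (0.998, 0.998 and 0.997). These coefficients mostly hold the difference between the groups: 2569 genes had an r above 0.95 with RASGRP2 and 350 with DGKA.

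Phospholipase C enzymes make diacylglycerol from phosphoinositides. Of 14 measured genes for them and for their relatives, 4 rose and 0 fell, against 14.2% of all genes called higher and 21.4% lower. Their median log2 fold change was 0.09, and 0.23 with the dimmest 30% of genes left out. PLCG1 rose by 0.30 ± 0.08 (SE), PLCD1 by 0.38 ± 0.11, PLCB3 by 0.24 ± 0.07 and PLCB2, named after its value was seen, by 0.24 ± 0.07. PLCG2, the phospholipase of the B-cell receptor and also named afterwards, was not called at 0.11 ± 0.08. The count of 4 became 0 without untreated replicate 2 or 3, 1 without LY317615 replicate 1 and 2 with the replicate number as a block. PLCB3 and PLCD1 were not called after cyclic loess, which gave larger changes of 0.49 for PLCG1 and 0.29 for PLCG2.

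The protein kinases C and D had 11 genes measured, 4 called lower and 1 higher, against 21.4% and 14.2% of all genes. The gene called higher, PRKCZ (0.27 ± 0.08, SE, and 0.14 after cyclic loess, named after its value was seen), encodes an atypical kinase, a kind that does not respond to diacylglycerol, as does PRKCI in the same list. PRKCH, PRKCA and PRKCD changed by -1.12 ± 0.10, -0.73 ± 0.11 and -0.66 ± 0.09 (SE), and PRKCB, the target of the compound, by -0.001 ± 0.078. The PRKCB probe set was dim, at the 28.6th percentile of untreated intensity, and whether it stood above background is not known. From other families with members that respond to diacylglycerol, 8 chimaerin, UNC13 and CDC42-binding kinase genes were measured. UNC13B rose by 0.28 ± 0.09 and 7 were not called, against 35.7% of all genes called. UNC13B, which lay in the dimmest bin, was not called after cyclic loess, with the array medians set equal or with any single array left out.

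Enzymes that use diacylglycerol in other ways, or make it from other lipids, moved both ways. Of 19, 6 fell and 4 rose (median -0.05), against 21.4% and 14.2% of all genes. LPIN1, which makes diacylglycerol from phosphatidic acid, the reverse of the kinase step, had means of 10.99 ± 0.06 untreated and 10.40 ± 0.05 treated (SD, n = 3), which is -0.59 ± 0.07 (SE) as a log2 fold change and -0.37 after cyclic loess. PNPLA2, a triglyceride lipase that releases diacylglycerol, changed by -0.60 ± 0.11 and DGAT2, which turns it into triglyceride, by -0.41 ± 0.09. CHPT1, which makes phosphatidylcholine from diacylglycerol and is named after its value was seen, had the largest change in the list, a rise of 0.77 ± 0.21, with treated values scattered from 6.11 to 7.13. The 10 calls became 5 without untreated replicate 2 or LY317615 replicate 2. Of 16 genes that rebuild phosphoinositides from phosphatidic acid, 2 were called and 14 were not, against 35.7% of all genes called. PI4K2A fell by 0.49 (-0.28 after cyclic loess) and PI4K2B rose by 0.37. After cyclic loess 7 of the 16 were called, with the median going from 0.03 to 0.18. The median over all genes went from 0.02 to 0.007, and the share of all genes called under that scaling is not given here.

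On the side of the RasGRP proteins, 1 of 9 measured Ras and Rap GTPase genes was called, against 35.7% of all genes. It was RAP2A, at -0.39 ± 0.08 (SE), which was not called after cyclic loess (-0.18). The count became 2 without untreated replicate 1 or LY317615 replicate 2. Exchange factors outside the RasGRP family moved both ways. Of 12, 4 fell and 2 rose, against 21.4% and 14.2% of all genes. RASGEF1B changed by -1.32 ± 0.13, RAPGEF5 by -1.06 ± 0.07 and RAPGEF6 by -0.66 ± 0.10. RASGRF1 and RASGEF1A, named after their values were seen, rose by 0.83 ± 0.16 and 0.38 ± 0.09, and SOS1, the general Ras exchange factor, changed by -0.26 ± 0.08. After cyclic loess SOS1 was at -0.043 and RASGEF1A at 0.24.

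The GTPase-activating proteins, which switch Ras and Rap off, had 4 of 11 genes lower and 0 higher, against 21.4% and 14.2% of all genes. RASA3, which acts on both Ras and Rap1, changed by -0.96 ± 0.09 (SE), RAP1GAP2 by -0.82 ± 0.10 and RASAL3 by -0.36 ± 0.08; NF1, named afterwards, changed by -0.36 ± 0.09 and by -0.14 after cyclic loess. Of 6 measured RAF, MEK and ERK genes and scaffolds, 2 fell and 1 rose, against 21.4% and 14.2% of all genes. MAP2K1 and MAPK3 fell by 0.52 and 0.35, and MAP2K2 rose by 0.49. MAP2K1 was at -0.29 after cyclic loess, and MAPK3 was not called after it (-0.16) or without untreated replicate 1. The medians of these 4 lists lay between -0.09 and 0.002, against 0.02 over all genes. With the dimmest 30% of genes left out, that of the GTPase-activating proteins was -0.27. Of their genes called lower, NF1 lay in the brightest bin, where 47.6% of all genes fell, and RASAL3 in the fourth, where 37.0% fell. RASA3 and RAP1GAP2 lay in the middle bin, where 15.4% fell. These bins include the treated arrays, and by untreated intensity alone RASA3 (62.6th percentile) would lie in a brighter bin.

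**Figure D4:**
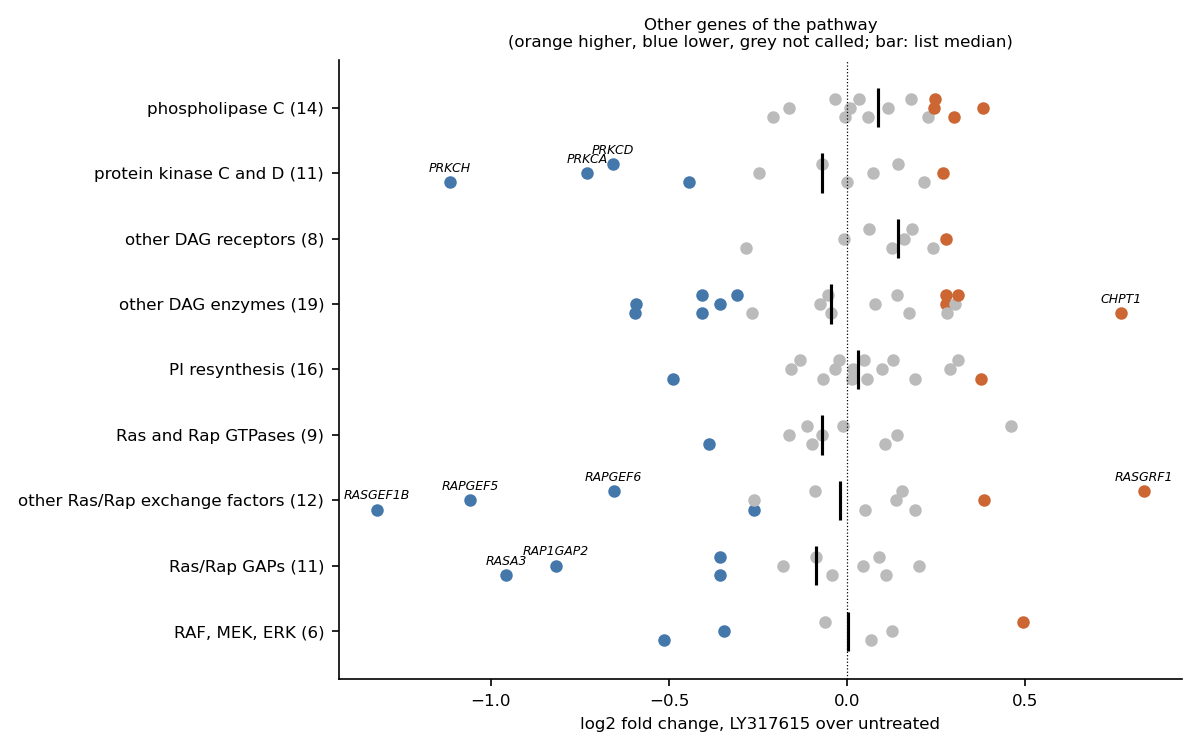
Log2 fold change (horizontal axis) of each measured gene in 9 lists of the pathway (rows, number measured in brackets), orange where higher and blue where lower at an adjusted p of 0.05, grey where not called, with a black bar at the list median. Phospholipase C genes have calls only above 0 and Ras and Rap GTPase-activating proteins only below 0, while other lists with several calls have them on both sides. Over all genes, 21.4% were called lower and 14.2% higher.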

How the data were processed

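The 6 arrays were analysed, 3 untreated and 3 LY317615, grouped by sample titles. The deposited values are linear intensities per probe set, normalized by the authors with RMA, Affymetrix Expression Console and GCOS 1.4 per the submitters' processing notes, which give no order; the build is not given in the sources used here. Of 33297 probe sets, 19460 had 1 gene symbol, 1754 several and 12083 none; the first kind was used, the brightest per gene by mean over the arrays, leaving 18417 genes. Log2 intensities were fitted with limma 3.58.1 in R 4.3.3 (eBayes, two-sided, Benjamini-Hochberg over all genes, threshold 0.05), with no filter and no constant added. Nothing in the labels states separate cultures, so p-values reflect only differences among these arrays, possibly technical ones, and the number of arrays limits precision. Median intensity was 56.7 to 58.2 untreated and 60.0 to 61.4 treated. A filter on the dimmest 30% of genes, used as an alternative, kept 9 of the 10 genes and left out DGKG. The code was tested on simulated data.

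The genes, pathway lists and tests were chosen with earlier results of these data known. Named were the 10 genes, 4 other family genes, PRKCB, up to 3 called genes of each list by smallest adjusted p, and the 3 genes most correlated with the largest rise and the largest fall; further names are marked in the text, and marker genes are named for their lists. Alternatives were array medians set equal, cyclic loess, the replicate number as a block, each array left out, an intensity trend or robust variance prior, array weights, the dim filter, other treatments of probe sets, log2(value + 16) and an adjusted p of 0.01. Python 3.11.15, pandas 2.3.3 and matplotlib 3.10.9 made tables and figures.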

Additional observations from a re-analysis of the deposited data

How the results depend on the processing

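DGKA, DGKD, DGKH, DGKQ, RASGRP1 and RASGRP2 kept their direction and call under all 16 alternatives run, and genes called higher stayed at 2. Direction could not change with the replicate block or another variance prior, which leave log2 fold changes as they are. DGKE weakened to -0.46 with array weights and ran from -0.78 to -0.45 with single arrays left out. RASGRP3 passed at -0.27 with the array medians set equal, -0.22 with an intensity trend, the dim filter or the mean of probe sets, -0.23 with array weights, -0.21 with log2(value + 16), and ran from -0.26 to -0.19 with single arrays left out. DGKG turned to -0.029, DGKI to -0.017 and RASGRP4 to -0.062 after cyclic loess, and DGKB (-0.16 to 0.078) and PRKCB (-0.051 to 0.037) changed sign with single arrays left out; none of these was called. The cause was not tested.

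Over all genes, 1566 to 2538 rose and 3043 to 3677 fell with single arrays left out (1566 without untreated replicate 2 and 1715 without untreated replicate 3), and 967 rose and 2619 fell at an adjusted p of 0.01. Same-numbered arrays did not deviate together (correlations of deviations -0.02, 0.09 and 0.07), so the numbers are not taken as pairs. With the replicate number as a block, log2 fold changes cannot move in this balanced design, only their errors and calls. In limma the adjusted p of DGKE went from 0.0293 to 0.00171 and that of RASGRP3 from 0.0501 to 0.0805. The phospholipase C calls went from 4 to 2, Ras and Rap GTPases from 1 to 2 and other diacylglycerol receptors from 1 to 0.

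Calls among other diacylglycerol receptors were also 0 with the array medians set equal, cyclic loess, an intensity trend, array weights, the dim filter and log2(value + 16), and 0 to 1 with single arrays left out. Phospholipase C calls were 0 to 4, diacylglycerol enzyme calls 5 to 10 and GTPase calls 1 to 2 with single arrays left out. GTPase calls were 2 after cyclic loess, with the dim filter and with log2(value + 16), and 3 with an intensity trend; phosphoinositide resynthesis calls were 7 after cyclic loess. List medians moved by more than the spread between arrays as follows. With the medians set equal they were -0.10 for diacylglycerol enzymes, -0.025 for resynthesis, -0.13 for GTPases, -0.076 for exchange factors and -0.055 for RAF, MEK and ERK. After cyclic loess they were 0.040 for diacylglycerol enzymes, 0.18 for resynthesis and 0.056 for GTPases. With the dim filter they were 0.23 for phospholipases C, -0.35 for protein kinases C and D, -0.089 for exchange factors, -0.27 for GTPase-activating proteins and -0.064 for RAF, MEK and ERK. With single arrays left out they ran from -0.051 to 0.023 for diacylglycerol enzymes, 0.011 to 0.086 for resynthesis and -0.092 to -0.036 for GTPases. No measure of background was used, which limits what the dim genes can show.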
